A study of Arabidopsis thaliana with 2 samples.

Results

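The UDP-glycosyltransferases (UGTs) described here are the Arabidopsis thaliana genes that the array annotation names UGT followed by a family number, without the flavonol glycosyltransferase genes UGT78D1 and UGT78D2. The rule found 45 genes, each with 1 probe set that names it alone, out of 13356 genes named in this way on the array. They fall into 11 families, and UGT71, UGT76, UGT73, UGT84 and UGT85 hold 9, 8, 7, 5 and 5 of them. The RefSeq gene table lists 58 genes with a symbol of this form. Beside the 45 genes and UGT78D1 and UGT78D2, 11 of them have no probe set of their own in the annotation used and are not analysed here as members.

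Whole seedlings of the Landsberg erecta accession were grown in the dark for 7 days at 23 °C, after their seeds had been kept cold and dark for 2 days and given 2 h of white light. One group then received 1 h of red light with a transmission maximum of 630 nm at about 10 µmol per square metre and second, and the other stayed in the dark for the same 1 h. Each group is 1 array made from 5 pooled seedlings, so there is no replicate error, no test and no p-value, and every difference is given by its size alone. In whole seedlings, fewer cells of a type and less RNA per cell cannot be told apart, and neither can red light and a difference between the pools.

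UGTs move a sugar from a nucleotide sugar, most often UDP-glucose, onto small molecules. Glycosylation makes a molecule more soluble, lets it be stored in the vacuole and, for hormones, usually lowers activity. The plant enzymes share a signature near the C terminus and are sorted into lettered phylogenetic groups. Several subfamilies lie in rows of neighbouring genes. Their substrates include auxins, cytokinins, abscisic acid and salicylic acid, the phenylpropanoids of lignin and sinapate metabolism, glucosinolate precursors, flavonoids, sterols and foreign compounds.

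Both arrays showed transcripts of genes from the marker lists of green shoot, root and seed, though not every listed gene was above background on both. The seedlings had grown in the dark, so the first list does not stand for green tissue. The 5 green shoot markers, LHCB4.1, LHCB4.2, LHCB4.3, PSAE-1 and PSBW, were all measured, with summed signals of 26944.5 after red light against 18211.4 in the dark. LHCB4.1 had nearly equal signals, 8944.9 and 9074, and the others had the higher signal after red light. The 3 root markers, PYK10, EXPA7 and EXPA18, summed to 7803.4 and 9842.4, and all 3 had the lower signal after red light. PYK10 carried the sum and was the only one measured. The root hair gene EXPA7 went from 26.4 in the dark to 8.8, and EXPA18 from 52.3 to 13.5, both below the highest background probe set after red light. The 3 seed markers, PAP85, M17 and LEA18, summed to 5667.7 and 5578.2, a sum carried by M17 with 5076.8 and 4548.3. LEA18, with 508.1 and 917.9, and the dim PAP85, with 82.8 and 112, had the lower signal after red light. No marker was at 0. The part of tissue makeup in the ratios below was not tested.

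Of the 45 genes, 21 counted as measured, 19 were dim and 5 lay at background. The limit for a measured gene was a mean log2 signal over both arrays equal to a signal of 102, which is the 40th percentile among probe sets other than controls. It was at background when neither signal exceeded the highest of 27 probe sets for bacterial transcripts, 20.5 with red light and 11.5 in darkness. The measured share of the UGT genes was 46.7%, against 54.5% of all named genes. A probe set's signal depends on its probes as well as on its transcript, so signals are compared between the arrays and not between genes.

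The limit between measured and dim is not a limit between active and inactive genes. Just below it lay UGT72B3, with signals of 117.3 after red light against 82.3 in the dark, and UGT74F1, with 84.7 and 70.2. Just above it lay UGT85A4, with 86.3 and 145.2, and UGT76C1, with 130.5 and 105.9. UGT76E11 passed only through its red light signal and UGT85A4 only through its dark signal, so their differences helped to decide whether they were counted.

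**Figure D1:**
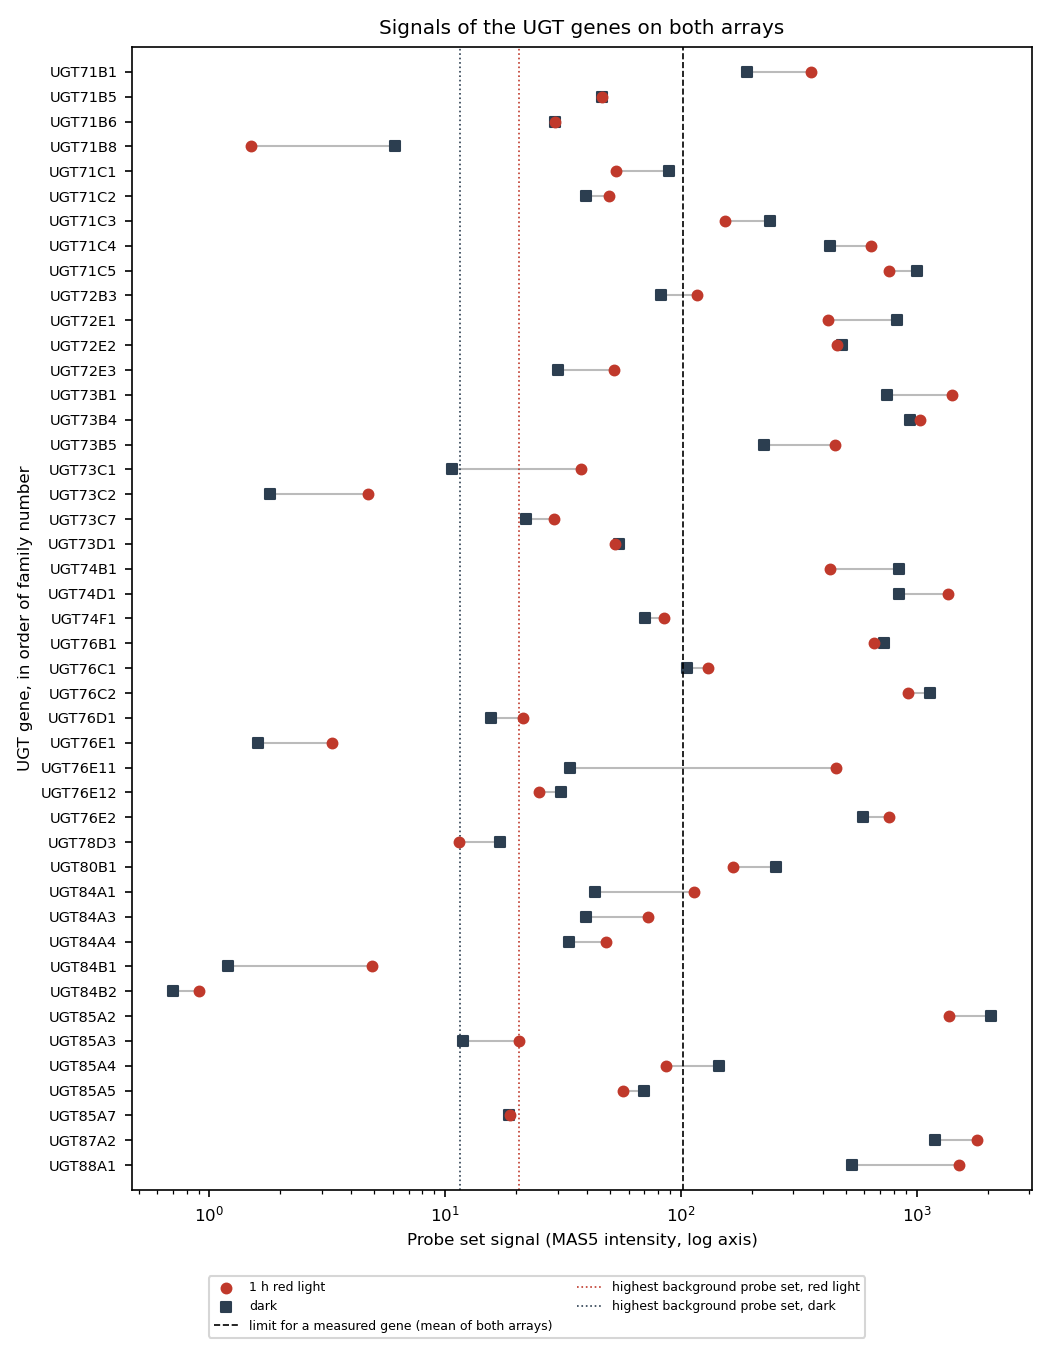
Probe set signals (MAS5 intensity, log axis) of the 45 UGT genes in order of family number, with circles for the red light array and squares for the dark array. The dashed line is the signal of 102 that the mean of both arrays had to reach, and the dotted lines are the highest background probe sets, 20.5 for red light and 11.5 for dark; UGT76E11 has the widest gap among the measured genes.

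Past 2-fold, 3 of the 21 measured UGT genes had the higher signal after red light and 0 had the lower one. Over all 7282 measured genes of the array the background was 4.82% higher and 2.44% lower. The 3 are 14.3% of the measured UGT genes, but 1 of them sat on the threshold and another, UGT76E11, could pass the filter only by being higher.

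Both counts moved with the scaling of the arrays. With quantile normalization 2 UGT genes were higher and 2 lower, beside 3.98% and 2.94% of all genes. Median centring also gave 2 and 2, beside 3.91% and 3.31%, and loess gave 2 and 1, beside 4.16% and 2.77%. Centring on the hybridization controls gave 5 and 0, beside 9.68% and 1.25%. With a pseudocount of 22.1 added to every signal the counts were 2 and 0, beside 3.89% and 1.96%. At 3-fold only UGT76E11 was higher and 0 genes were lower, beside 1.28% and 0.755%. With the filter at the 60th percentile only UGT88A1 of 14 measured UGT genes was higher, beside 3.72% higher and 1.93% lower. With no filter 8 of 45 were higher and 1 lower, beside 12.2% and 8.72%, and these include genes at background.

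UGT76E11 (AT3G46670) stood farthest apart. This enzyme, which is known to act on flavonoids, had a signal of 453.8 after red light against 33.8 in the dark, a 13.4-fold difference. The dark signal was above the highest background probe set of that array, 11.5, but below the limit for a measured gene. The pseudocount took the log2 ratio from 3.75 to 3.09. It was 3.63 with quantile normalization and 4.05 with centring on the hybridization controls.

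UGT88A1 (AT3G16520) had signals of 1516.4 and 530.8 and was thus 2.86-fold higher. Both signals were well above the limit, and the log2 ratio of 1.51 was 1.48 with the pseudocount. It was the only UGT gene past 2-fold whose signals both exceeded the stricter limit, a signal of 332 at the 60th percentile.

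UGT73B5 (AT2G15480), a stress-induced gene with a part in pathogen responses, had signals of 449.1 and 224.5. Its 2.00-fold difference lay on the threshold itself. The difference was less than 2-fold with each of quantile normalization, loess, median centring and the pseudocount. With centring on the hybridization controls it was past 2-fold, at a log2 ratio of 1.30.

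The measured UGT genes lay on both sides of 0. The median log2 ratio was 0.14, beside 0.00 over all measured genes, with 11 UGT genes above 0 and 10 below. Of all measured genes 50.1% were above 0. The middle of the distribution, from the lower to the upper quartile, ran from -0.59 to 0.69 for the UGT genes and from -0.29 to 0.32 for all measured genes. Of the 21 genes 8 were past 1.5-fold upwards, beside 12.7% of all measured genes, and 6 were past it downwards, beside 8.95%. In either direction these are 14 of 21 genes, beside 21.7% of all measured genes. They include UGT76E11 and UGT85A4. Without these, 12 of 19 genes were past 1.5-fold and the median log2 ratio was again 0.14.

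Several of the 14 lay close to the 1.5-fold line. UGT85A2 was lower by a log2 ratio of -0.59, UGT71C4 was 1.51-fold higher, UGT87A2 1.52-fold higher and UGT80B1 1.52-fold lower. With other scalings 12 genes were past 1.5-fold, and with the pseudocount 10 were, beside shares of 19.3% to 30.8% of all measured genes under the same settings. The count was also split by signal. Among the dimmest 2428 of all measured genes 5 of 6 UGT genes were past 1.5-fold, and 3 of 4 without UGT76E11 and UGT85A4, beside 26.9% of genes there. Among the next 2427 it was 4 of 7, beside 22.2%, and among the brightest 2427 it was 5 of 8, beside 15.9%.

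**Figure D2:**
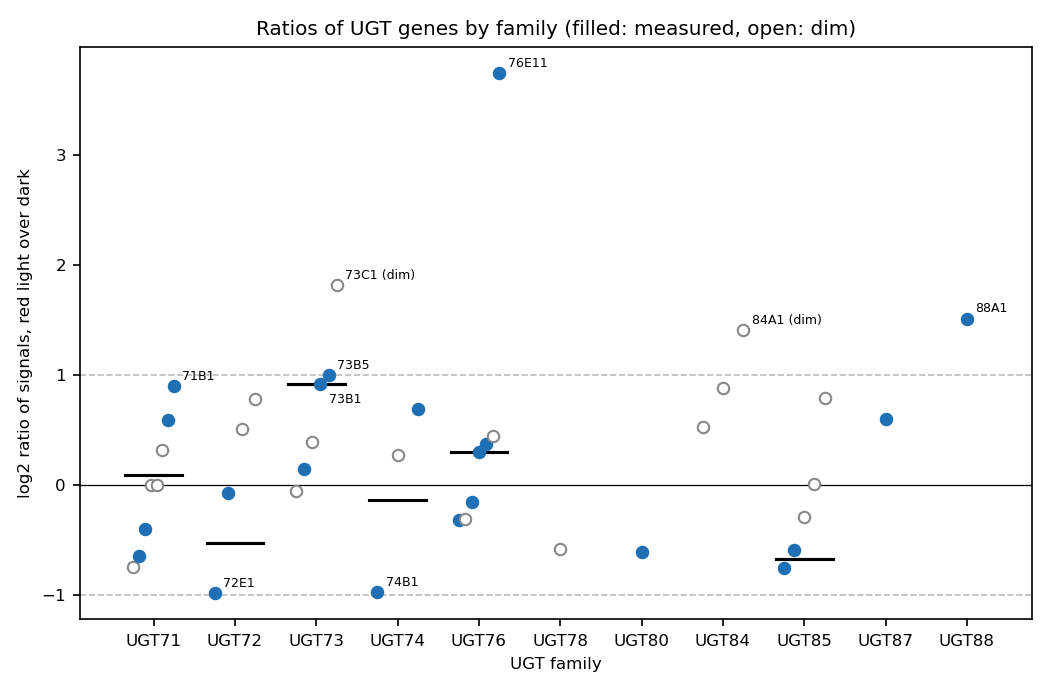
Log2 ratio of red light over dark for each UGT gene by family, with filled points for measured genes, open points for dim genes and a bar at the median of families with more than 1 measured gene. Dashed lines mark 2-fold, and the 5 genes at background are not drawn. The measured genes of UGT73 all lie above 0 and those of UGT72, UGT80 and UGT85 all lie below, beside 50.1% of all measured genes above 0.

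The UGT73 family forms phylogenetic group D and holds stress-induced and detoxifying enzymes. Its 3 measured genes were all higher after red light, beside 50.1% of all measured genes, and had a median log2 ratio of 0.92. UGT73B1 (AT4G34138) had signals of 1408.9 and 745.3 and was 1.89-fold higher. UGT73B4, which acts on foreign compounds, had 1032.1 and 935.3, a log2 ratio of 0.14. Thus UGT73B5 and UGT73B1 made up the family's difference and UGT73B4 had nearly the same signal on both arrays.

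The rest of the UGT73 family was dim or at background. UGT73C1, which acts on cytokinins and foreign compounds, had signals of 37.7 after red light against 10.7 in the dark. The dark value was below the highest background probe set, and no fold value is given for this gene. UGT73C7 had 28.9 and 22, UGT73D1 had 52.6 and 54.6, and UGT73C2 was at background with 4.7 and 1.8.

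The UGT76 family, group H, had 5 measured genes with a median log2 ratio of 0.30, which rests on UGT76E11. The median of the other 4 was 0.08, and with the stricter filter, which also leaves out UGT76C1, it was -0.15. UGT76E11 alone was past 1.5-fold, which as 1 of 5 genes is near the 21.7% of all measured genes. UGT76E2 had signals of 766.0 after red light against 590.7 in the dark, a log2 ratio of 0.37. The neighbour of UGT76E11, UGT76E12, was dim on both arrays, with 25.0 and 31.0, so the wide difference of UGT76E11 was not seen there. UGT76E1 was at background, with 3.3 and 1.6.

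The largest number of UGT genes belonged to group E, formed by the UGT71, UGT72 and UGT88 families. Of its 14 genes 7 were measured, 3 above 0 and 4 below, with a median log2 ratio of -0.07 and a range from -0.98 for UGT72E1 to 1.51 for UGT88A1. This range held the lowest and the second highest ratio of all measured UGT genes.

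Within UGT71 the 4 measured genes were divided. UGT71B1 (AT3G21750) had signals of 354.8 and 189.9 and was 1.87-fold higher. UGT71C4 had 642.5 and 426.8 and was also higher, while UGT71C3, with 153.4 and 239.1, was 1.56-fold lower. UGT71C5, which glucosylates abscisic acid, was lower by a log2 ratio of -0.40, with 761.3 and 1005.5.

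The UGT72 genes glucosylate the monolignols and related phenylpropanoids. UGT72E1 (AT3G50740) had signals of 419.4 after red light against 828.3 in the dark and was 1.97-fold lower. Its log2 ratio of -0.98 was -1.07 with median centring and -1.02 with quantile normalization, just past 2-fold, and with loess it lay on the threshold. It was -0.95 with the pseudocount and -0.68 with hybridization control centring. UGT72E2, which acts on coniferyl and sinapyl alcohol, had 459.5 and 483.1, close to equal. UGT72E3, with the same substrates, was dim, with 51.9 and 30.1, so its ratio ran the other way at a low signal.

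Group L, formed here by the UGT74 and UGT84 families, had 2 measured genes of 8, and they differed in opposite directions. UGT74B1 (AT1G24100), the enzyme that glucosylates thiohydroximates in glucosinolate synthesis, had signals of 429.5 after red light against 842.9 in the dark and was 1.96-fold lower. Its log2 ratio of -0.97 was just past 2-fold with median centring and quantile normalization, at -1.06 and -1.01, and was -0.94 with the pseudocount and -0.67 with hybridization control centring. UGT74D1 (AT2G31750), which glucosylates oxidised auxin, had 1358.2 and 839.5 and was 1.62-fold higher.

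No UGT84 gene was measured. UGT84A1, UGT84A3 and UGT84A4, which make the glucose esters of hydroxycinnamates, were dim. All 3 had a higher signal after red light and are among the 12 of 19 dim UGT genes that did. UGT84A1 had 114.1 and 43.0, a 2.65-fold difference. UGT84A3 had 72.7 and 39.5, and UGT84A4 had 48.2 and 33.5. All 6 signals were above the highest background probe set of their array. The spread of ratios is wider at low signals: their SD on the log2 scale was 0.67 over the dimmest 2428 measured genes, against 0.47 over the brightest 2427. The UGT84 genes lay below the limit and so outside both sets. With no filter 12.2% of all genes were past 2-fold upwards, against 4.82% of the measured genes.

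The UGT85 family, group G, had 2 measured genes, both with the lower signal after red light, but UGT85A4 passed the filter only through its dark signal. UGT85A2 (AT1G22360) had signals of 1377.0 and 2068.6. UGT85A4 (AT1G78270) had 86.3 and 145.2 and was 1.68-fold lower. The other 3 were dim. UGT85A5 had 57.0 and 69.7, UGT85A7 had 18.8 and 18.7, and UGT85A3, with 20.6 and 11.9, stood at the edge of background.

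The families with 1 gene each also differed in direction. UGT87A2 (AT2G30140), which is known to affect flowering time, had signals of 1807.6 after red light against 1191.9 in the dark. UGT80B1 (AT1G43620), also called TRANSPARENT TESTA 15 and active on sterols, had 165.9 and 252.4. UGT78D3, a flavonol arabinosyltransferase gene, was dim with 11.4 and 17. Its relatives outside the group described here, UGT78D1 and UGT78D2, were 4.21-fold and 5.18-fold higher. The signals of UGT78D1 were 1254.7 and 298.1, and those of UGT78D2 were 794.4 and 153.5.

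Arranged by main known substrate, 10 genes act on hormones, not counting UGT73C1, which is placed with the detoxifying enzymes. Of these 10 genes 5 were measured, 2 above 0 and 3 below, with a median log2 ratio of -0.15. None of the 5 was past 2-fold, a limit that few measured genes of the array passed, 4.82% upwards and 2.44% downwards. The cytokinin N-glucosyltransferase gene UGT76C2 had signals of 915.7 after red light against 1140.4 in the dark, and its neighbour UGT76C1, with the same substrates, had a log2 ratio of 0.30 on the other side of 0. UGT76B1, which acts on isoleucic acid and salicylic acid, had 656.6 and 728.2. UGT74D1, at 1.62-fold, was the only one of the 5 past 1.5-fold, near the 21.7% of all measured genes.

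The other hormone genes gave low signals. UGT71B6, an abscisic acid glucosyltransferase gene, had 29.1 on both arrays. UGT76D1, which acts on dihydroxybenzoic acids, had 21.4 after red light against 15.7 in the dark. UGT84B1, an indole-3-acetic acid glucosyltransferase gene, was at background with 4.9 and 1.2, as was UGT71B8, with 1.5 and 6.1. No fold is given for genes at background.

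Among the 6 phenylpropanoid genes of the UGT72 and UGT84 families 2 were measured, both below 0, beside 50.1% of all measured genes above 0. The 4 dim ones, UGT72E3, UGT84A1, UGT84A3 and UGT84A4, had the higher signal after red light. Of all 19 dim UGT genes, 12 had the higher signal after red light, 5 had the lower one and 2 were equal. The 12 include these 4, and the share over all dim genes of the array is not given here. No shared direction is therefore read from them. Of the pathway that supplies their substrates, 3 genes had a probe set naming them alone in the list searched, and only HCT, a hydroxycinnamoyl transferase gene of monolignol synthesis, was measured, with signals of 2406.6 and 2311.3. Neither of the 2 named genes of glucosinolate synthesis was measured beside UGT74B1.

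Of the 45 genes, 29 lay in 12 rows of neighbours with at most 2 other protein-coding genes between them in the TAIR10.1 gene order. All genes were measured in 3 rows, none in 5 and some in 4. UGT71C3, UGT71C4 and UGT71C5 lie side by side, and the ratio of the middle gene was above 0 while those of the outer genes were below. In the row of UGT85A7, UGT85A2, UGT85A5 and UGT85A3 only UGT85A2 was measured, and its ratio was below 0.

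UGT73B4 and UGT73B5 are adjacent and both were higher after red light, by unequal amounts. UGT71B1 was measured while its neighbours UGT71B6 and UGT71B8 were dim and at background, and UGT76E2 was measured beside UGT76E1 at background. In the row of UGT84A1, UGT84A3 and UGT84A4 all genes were dim and had the higher signal after red light. They are among the 12 of 19 dim UGT genes that did. Related neighbours can share probe matches. The IDs of all 45 probe sets carry no mark for possible cross-hybridization, but an ID without a mark cannot exclude such matches. The probe set 260379_at, left out here, has no mark and names 2 genes.

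**Figure D3:**
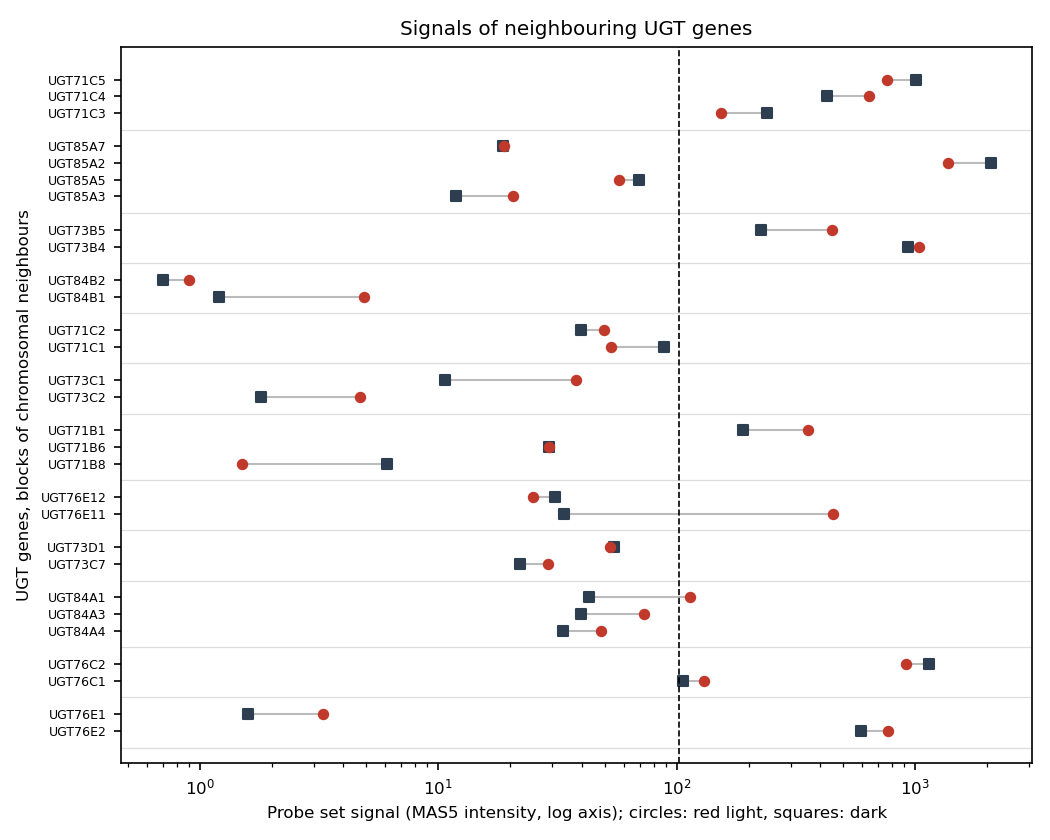
Signals (MAS5 intensity, log axis) of the 29 UGT genes that lie in 12 rows of chromosomal neighbours, separated by grey lines, with circles for red light and squares for dark and a dashed line at a signal of 102. UGT76E11 and UGT76E12 have dark signals of 33.8 and 31.0, and only UGT76E11 lies beyond the dashed line after red light, at 453.8.

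Gene families with related chemistry give a scale for these values. The beta-glucosidases with a BGLU symbol, many of which remove glucose from conjugates, had 12 measured genes, 10 above 0 and 2 below. Of these 3 were past 2-fold upwards and 0 downwards, and the median log2 ratio was 0.50. PYK10, the beta-glucosidase listed above as a root marker, carries no such symbol in the annotation and is not counted. Its log2 ratio was -0.33. BGLU40 was 3.18-fold higher, BGLU19 2.44-fold and BGLU47 2.11-fold. The glutathione transferases, which conjugate reactive and foreign compounds, had 9 measured genes with 1 higher, GSTU18 at 3.12-fold, and a median of 0.22. The 7 measured cytochromes P450, mainly of the CYP71B subfamily, had a median of 0.08 and 0 genes past 2-fold. The 5 measured glycosyltransferases of cell wall synthesis had a median of -0.01, with CSLC04 1.85-fold lower. For each family the background was the same 4.82% higher and 2.44% lower, and the differences between families were not tested.

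**Figure D4:**
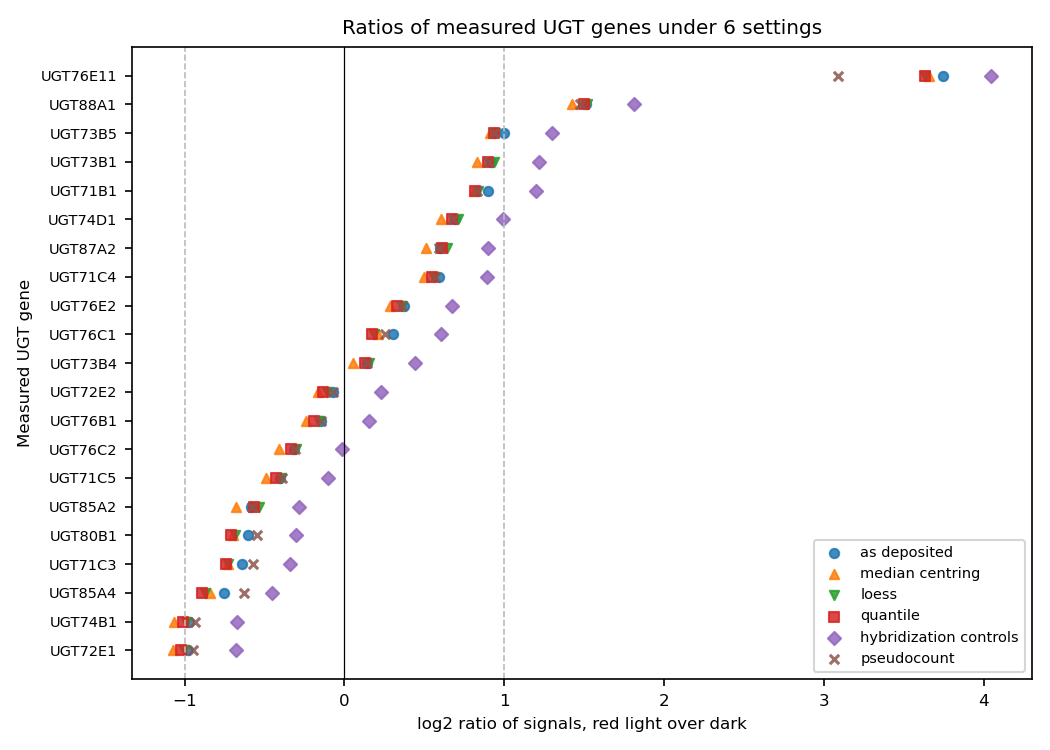
Log2 ratio of red light over dark for the 21 measured UGT genes under 6 settings, in order of the ratio as deposited, with dashed lines at 2-fold. UGT76E11 and UGT88A1 stay beyond 2-fold under all 6, and centring on the hybridization controls moves every point to the right by 0.30. UGT73B5 lies on the line as deposited, beyond it with the hybridization controls and short of it under the other settings.

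The zero point of the ratios depended on the scale. The median log2 ratio of the 18 hybridization controls was -0.30. Centring on them moved the median of all measured genes to 0.30 and took the UGT genes from 11 above and 10 below 0 to 13 above and 8 below. UGT72E2 and UGT76B1 then lay above 0. The median of the UGT genes was 0.44 there. Since this centring shifts all ratios alike, the 0.14 between it and the median of all genes could not change.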

How the data were processed

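The authors deposited linear probe set intensity values, for which the submitters' processing notes name MAS5 version 5. Settings and detection calls of that step are not stated. The trimmed means of both arrays were 500.0, so no further scaling was applied. Arrays carry no count of reads, and 1 array per group limits the precision. Each array was made from 20 ng of RNA. The 3' to 5' signal ratio of the actin control probe sets was 40.1 with red light and 35.8 in the dark. That of the GAPDH control was 2.06 and 2.11. How far this bias towards the 3' end lowered single signals was not tested.

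Signals below 1 were set to 1 and turned to log2. The difference between red light and dark was formed for each probe set naming 1 gene and averaged per gene, with a filter at the 40th percentile of mean log2 signal. Names came from the array annotation, and all 45 genes matched the RefSeq table of TAIR10.1, used for loci and gene order only. The sequence features planned were not analysed, as no sequence table was used here. The members, lists and thresholds were chosen with earlier results of these data known. Any UGT gene could be named. The plan gave full values to genes past 2-fold, the largest ratio of each family and the brightest genes. Signals of many other UGT genes, dim ones among them, were printed as well. In the related lists up to 3 measured genes with the largest ratios were named. Cyclophilins with CYP symbols were left out.

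The alternatives were median centring, loess (span 0.3), quantile normalization, hybridization control centring, a pseudocount of 22.1 (the 25th percentile), filters at the 60th percentile (a signal of 332) or none, no cross-hybridizing probe sets, the brightest probe set, thresholds of 1.5-fold and 3-fold, and RefSeq names. Counts at 1.5-fold under each scaling were chosen after seeing the data. The calling was also run on simulated data with known folds, but its outcome is not given here and no call rests on it. Python 3.11.15, pandas 2.3.3, numpy 2.4.6, statsmodels 0.14.6 and matplotlib 3.10.9 were used.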

Additional observations from a re-analysis of the deposited data

How the results depend on the processing

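No paired analysis was possible because red light and dark have 1 array each. Against 3 higher and 0 lower UGT genes, the counts were 2 and 2 with median centring and with quantile normalization, 2 and 1 with loess, 5 and 0 with hybridization control centring, 8 and 1 over all 45 genes with no filter, 1 and 0 with the filter at the 60th percentile, 8 and 6 at 1.5-fold and 1 and 0 at 3-fold. Against 0.14, the median log2 ratio was 0.44 with hybridization control centring, 0.30 with no filter and 0.035 over 14 genes with the stricter filter. The UGT76 median of 0.30 was 0.18 with loess, 0.17 with quantile normalization, 0.60 with hybridization control centring and -0.15 with the stricter filter, which leaves out UGT76E11 and UGT76C1. It was 0.076 over the 4 genes that reached the limit on both arrays, an alternative chosen after seeing the data. The UGT71 median of 0.09 was 0.39 and the UGT73 median of 0.92 was 1.22 with hybridization control centring, and the latter was 0.53 with the stricter filter. Of 105 values of single measured genes under the 4 other scalings and the pseudocount, 94 kept their side of 2-fold, 7 moved past it and 4 fell short of it. The cause of these differences was not tested, other than that a filter changes which genes are counted and centring shifts all ratios alike. Leaving out cross-hybridizing probe sets and taking the brightest probe set could not change the UGT values, as each gene has 1 probe set without such a mark. Adding RefSeq names left the 2-fold counts at 3 and 0. Dim signals limit the ratios of the 24 genes that did not count as measured.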

Other observations

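Of the genes that carry a UGT name only among the RefSeq symbols and synonyms, GT72B1 and SGT were measured, and neither was past 1.5-fold. GT72B1, whose enzyme glucosylates chlorinated foreign compounds and monolignols, had signals of 691.0 after red light against 471.0 in the dark. Its log2 ratio of 0.55 was above 0.32, the upper quartile of all measured genes. SGT, a sterol glucosyltransferase gene related to UGT80B1, had 614.3 and 673.9, a log2 ratio of -0.13. UF3GT, an anthocyanin glycosyltransferase gene, was at background with 6.8 and 5.1, and so was AT5G54010, with 0.6 and 0.7.

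A further 3 probe sets name a UGT gene together with a second gene and were left out, since their signal cannot be given to either. Their log2 ratios were 0.06 for 253268_s_at, -0.35 for 260379_at and -0.58 for 266643_s_at, and none was past 2-fold.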
